A study of Rattus norvegicus with 6 samples.

Results

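The genes described here are 8 markers of peripheral nerve, taken from the table by gene name, with earlier results of these data known: the Schwann cell genes Sox10 and S100b, the peripheral myelin genes Pmp22, Prx and Mbp, and the axonal genes Stmn2, Nefl and Nefm. All 8 were found by gene name among the 34045 genes of the deposited expression table. They were measured by RNA sequencing in tissue from calvarial defects, holes in the skull roof, of wild type male Sprague-Dawley rats at week 4 after surgery. The defects held a hydrogel named CGG (3 libraries) or one named CGG-Cit (3 libraries). The labels do not spell out either name and give no age. No label says that each library is from its own rat, and the p-values therefore cover only the spread of these libraries, part of which may be technical. The series title ties the gels to a metabolite of the tricarboxylic acid cycle and to bone formation, and the comparison asks how defect tissue with CGG-Cit differs from defect tissue with CGG.

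Peripheral nerves consist of axons, whose cell bodies lie outside the tissue in ganglia or the spinal cord, and of Schwann cells that ensheath them. Bone, periosteum and dura carry sensory and sympathetic fibres, so most neuronal mRNA stays outside an excised defect, while the mRNA of Schwann cells is inside it. Sox10 is the transcription factor that specifies and maintains Schwann cells, and together with Egr2 it drives the myelin genes. After nerve injury Schwann cells lower myelin genes and raise receptors such as Ngfr, and they remyelinate regrown axons later.

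Of the 6 genes that could be tested, Stmn2 was higher in CGG-Cit and the other 5 did not pass. Stmn2 averaged 1.48 ± 0.973 FPKM (fragments scaled by gene length and library size; SD, n = 3) with CGG against 10.3 ± 0.804 with CGG-Cit, a 6.94-fold difference of means. The neurofilament genes Nefl and Nefm, which build the cytoskeleton of axons, were at or near 0 in all 6 libraries and were not tested, so the axonal part of the label rests on Stmn2 alone among these 8 genes. Of the 6 genes abundant enough to test, 1 passed limma at an adjusted p under 0.05, against a background of 17.5% of the 15965 genes tested (7.75% higher and 9.78% lower in CGG-Cit). The 5 Schwann cell and myelin genes did not pass, and 4 of them were lowest among the CGG libraries in the same library, CGG 3. In bulk tissue, fewer cells of a type and less RNA per cell cannot be told apart.

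Depth was even, at 14744207 to 16224920 assigned fragments per library as recovered from the table. The labelled tissue was borne out by bone genes: Col1a1, the main bone collagen chain, lay between 3401 and 8623 FPKM and Bglap, which encodes osteocalcin, between 611 and 3384 FPKM over the 6 libraries. The tissue also differed in muscle: all 4 skeletal muscle fibre markers measured (Ckm, Acta1, Tnnt3 and Mb) fell, with a summed level of 4562 to 5087 FPKM in CGG and 26.3 to 212.4 FPKM in CGG-Cit. The call of Mb held only with CGG 1 or CGG-Cit 3 as the library left out (otherwise adjusted p of 0.071 to 0.0929).

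The windows of 250 bases before an annotated transcript start are shown for Prx, Pmp22 and S100b, because these Schwann cell and myelin genes shared their lowest CGG library. The sequences are from RefSeq on build GRCr8, run 5′ to 3′ along the gene, and have matches to the motifs searched in capitals.
Prx (chr1:91914171-91914420, plus strand): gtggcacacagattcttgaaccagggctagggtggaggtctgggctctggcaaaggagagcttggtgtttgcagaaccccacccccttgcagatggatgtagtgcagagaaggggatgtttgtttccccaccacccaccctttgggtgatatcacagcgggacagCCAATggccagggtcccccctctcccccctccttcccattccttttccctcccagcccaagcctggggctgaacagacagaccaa
Pmp22 (chr10:48294682-48294931, plus strand): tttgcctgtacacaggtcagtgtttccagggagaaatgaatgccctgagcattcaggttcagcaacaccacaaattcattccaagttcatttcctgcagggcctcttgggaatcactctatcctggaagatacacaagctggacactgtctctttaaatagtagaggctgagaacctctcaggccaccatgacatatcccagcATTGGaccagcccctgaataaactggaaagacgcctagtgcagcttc
S100b (chr20:12381082-12381331, minus strand): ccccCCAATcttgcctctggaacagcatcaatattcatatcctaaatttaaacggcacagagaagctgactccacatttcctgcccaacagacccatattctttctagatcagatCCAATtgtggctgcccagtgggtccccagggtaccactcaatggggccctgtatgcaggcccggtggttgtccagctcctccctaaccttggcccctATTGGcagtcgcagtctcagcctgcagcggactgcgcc
The motifs searched on both strands were the Sox-type cores ACAAAG and AACAAT, the CCAAT box, and the Egr-type sites GCGTGGGCG and GCGGGGGCG. The CCAAT box was the motif found, with 1 match in Prx, at bases 85 to 81 before the start, 1 on the opposite strand in Pmp22, at bases 47 to 43, and 3 in S100b. It occurs in 34.0% of the 33469 windows of this length. ACAAAG occurs in 16.3% of all windows, AACAAT in 10.3%, GCGTGGGCG in 0.478% and GCGGGGGCG in 2.45%, and none of these 4 was in the 3 windows shown. The GC content was 58.8% in Prx, 48% in Pmp22 and 54.8% in S100b, with a median of 51.2% over all windows.

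Stmn2 encodes stathmin-2, also called SCG10, a protein of growing axon tips that binds tubulin and promotes the disassembly of microtubules. It stood at 0.365, 1.95 and 2.13 FPKM in CGG 1, 2 and 3 and at 11.2, 9.58 and 10.1 FPKM in CGG-Cit 1, 2 and 3. The lowest CGG-Cit library thus lay far above the highest CGG library, and the CGG-Cit libraries were close to each other. The coefficient of variation between libraries was 65.6% in CGG and 7.81% in CGG-Cit, where the median over all genes tested was 13.4% and 15.4%.

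The Stmn2 values rest on 12, 63 and 67 fragments in CGG and on 352, 305 and 351 in CGG-Cit. The low value of CGG 1 has an exact Poisson 95% interval of 0.188 to 0.637 FPKM, which lies below the interval of CGG 2 (1.5 to 2.5 FPKM). Such intervals cover counting error only. Stmn2 rose by 2.28 ± 0.319 (SE) on the log2(FPKM + 1) scale, with an adjusted p of 0.0117 with limma. It passed in each of the 16 alternative fits, at adjusted p of 0.00654 to 0.0473, the highest being the fit without CGG-Cit 2. Its gene model (ENSRNOG00000011705) is listed on the minus strand of chromosome 2, 95424251 to 95472115, with no other listed gene overlapping it. Of the 8 genes, Sox10 shares its place with 1 listed gene that had any signal, AC096473.3 on the other strand, at 0.476 FPKM in CGG 3 and 0 elsewhere.

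**Figure D1:**
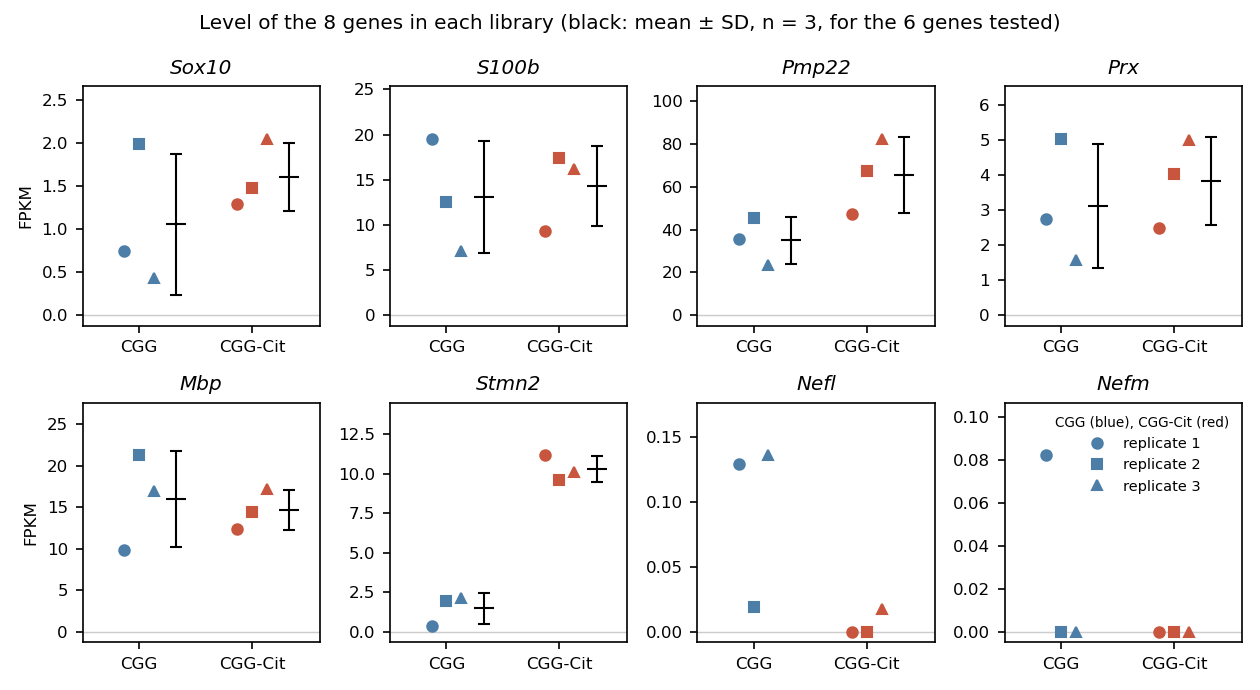
Level of each of the 8 genes in FPKM (vertical axis, linear, scaled per gene) in the CGG and CGG-Cit libraries, with 1 symbol shape per replicate number and, for the 6 genes tested, the mean and SD of 3 libraries in black. Stmn2 separates the groups by a wide gap and Pmp22 by a narrow one, Sox10, S100b, Prx and Mbp overlap, and Nefl and Nefm lie at or near 0.

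Nefl and Nefm encode the light and medium neurofilament subunits, which assemble with Nefh or Ina into the filaments that set axon calibre. Nefl had 7, 1 and 7 fragments in CGG 1, 2 and 3, where CGG-Cit 1, 2 and 3 had 0, 0 and 1, and its highest level was 0.136 FPKM. Both genes lay under the filter of a mean of at least 0.5 FPKM and were not tested. Nefm had 4 fragments in CGG 1 and 0 in the other 5 libraries, where a count of 0 allows up to 3 fragments by a one-sided 95% limit, or 0.0585 to 0.0644 FPKM.

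The few Nefl fragments were mostly in CGG, opposite to Stmn2. Summed over libraries and scaled for depth, the ratio of CGG to CGG-Cit was 15.2, with an exact 95% interval of 2.34 to 640.8 for 15 against 1 fragments. This interval covers counting error only and compares these libraries. CGG 2, with 1 fragment, was level with CGG-Cit 3, so the separation of the groups in Nefl was a matter of single fragments. In the fit without the filter on low values the adjusted p was 0.246 for Nefl and 0.657 for Nefm. The genes are listed as neighbours on opposite strands of chromosome 15, 50736 bases apart (Nefl at 44799334 to 44804574, Nefm at 44855310 to 44860604).

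Most of the other axon and neuron genes had low counts, and a few did not. Of 27 measured, 19 lay under the filter, 8 were abundant enough to test and 0 passed with limma (1 at an unadjusted p under 0.05, and 1, Nrcam, with limma's voom on the recovered fragments). Their median log2 fold change was 0.29, against 0.00 for all genes tested. Nefh, the heavy neurofilament gene, had 30, 27 and 22 fragments in CGG and 29, 6 and 4 in CGG-Cit. The relatives of Stmn2 stayed low, with 0 to 8 fragments per library for Stmn3 and 4 to 16 for Stmn4. Map1b, a microtubule-associated protein that many cells make, had more fragments than Stmn2, at 737 to 1794 per library (adjusted p = 0.211). The kinesin gene Kif5a had 101 to 213 and Cntnap1, an adhesion protein beside the node of Ranvier, had 124 to 224. The tubulin gene Tubb3 had 10 to 43, and Uchl1, a ubiquitin hydrolase of neurons, had 9 to 26. In these 5 genes the groups overlapped, and none passed.

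Several genes that mark neuronal cell bodies or transmitters, picked here for their low counts, were at or near 0. Elavl4, an RNA-binding protein of neurons, had 1 fragment in CGG 3 and 0 elsewhere. Tac1, Dbh, Chat and Slc18a3, which mark sensory, noradrenergic and cholinergic neurons, had 0 fragments in all 6 libraries. Gap43, a growth cone protein that is also made by Schwann cells, averaged 1.22 ± 0.203 FPKM with CGG against 1.53 ± 0.107 with CGG-Cit (SD, n = 3; adjusted p = 0.394 with limma). Sncg, a synuclein of peripheral neurons that fat cells also make, had 13.7, 37.4 and 6.31 FPKM in CGG and 22.7, 53.3 and 53.5 in CGG-Cit, with overlapping groups (adjusted p = 0.172). Nrcam, an adhesion protein of the node of Ranvier, averaged 0.661 ± 0.0481 and 2 ± 0.935 FPKM without overlap between the groups (adjusted p = 0.0607, and under 0.05 with a pseudocount of 0.1, TPM scaling, quantile normalization and voom).

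**Figure D2:**
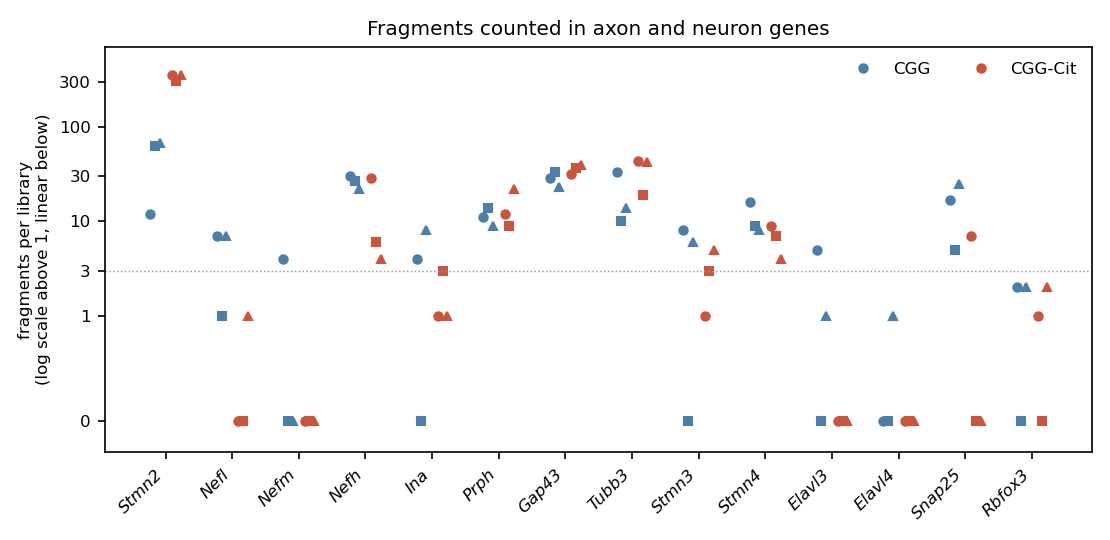
Fragments counted per library (vertical axis, log scale above 1 and linear below) in Stmn2 and 13 other axon and neuron genes, CGG in blue and CGG-Cit in red, with 1 symbol shape per replicate number and a dotted line at 3 fragments. Stmn2 reaches 305 to 352 fragments in CGG-Cit while Nefl, Nefm and Elavl4 have 0 or 1 there.

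Markers of other cells near a skull defect were read beside Stmn2. Of 16 brain cell markers 4 were tested and 2 fell, Aqp4 by 2 and Camk2a by 1.54 on the log2 scale. Aqp4 is also a water channel of fast muscle fibres. The summed level of the list was 10.01 to 14.8 FPKM in CGG and 3.28 to 6.1 FPKM in CGG-Cit, and most of it was Aqp4, Gfap and Camk2a in CGG. Markers of the oligodendrocyte lineage on the list had 0 to 43 fragments per library and differed in direction. Olig2 had 0, 1 and 0 in CGG and 1, 5 and 6 in CGG-Cit, Olig1 had 1 to 18 per library and Mog 8 to 34. Mobp had 8, 27 and 43 in CGG and 10, 1 and 4 in CGG-Cit. Opalin had 1, 0 and 1 in CGG and 0 in each CGG-Cit library. The synaptic gene Snap25 had 17, 5 and 25 fragments in CGG, 7 in CGG-Cit 1 and 0 in CGG-Cit 2 and 3. Neurod6, a cortical neuron factor, had 1 fragment in CGG 3 and 0 elsewhere. Of 7 meningeal markers 2 rose, Cldn11 and Slc13a4, and 0 fell, with a summed level of 38.4 to 309.7 FPKM in CGG and 163.9 to 1674 FPKM in CGG-Cit. Ptgds made up most of this sum in CGG-Cit, at 1540, 332.9 and 110.7 FPKM, while Crabp2 stood at 33.7, 31.1 and 24.3 FPKM there, above its 10.98 to 22.7 FPKM in CGG. Stmn2 and the meningeal genes Cldn11 and Slc13a4 were thus all higher in CGG-Cit. The part of brain or meningeal tissue in the Stmn2 result was not tested. Nor was it tested whether the Stmn2 mRNA came from axons or from other cells of the defect. When 1 library was left out, Cldn11 passed only with CGG-Cit 3 as that library (otherwise an adjusted p of up to 0.106) and Slc13a4 only with CGG-Cit 1 or CGG-Cit 3 (otherwise adjusted p up to 0.0971). Without the filter on low values neither passed (0.0645 and 0.0621), and Slc13a4 did not with voom (0.0642). Under the replicate block the adjusted p was 0.0743 for Cldn11 and 0.0511 for Slc13a4. Aqp4 was lost by leaving out CGG 3 (adjusted p = 0.051) or CGG-Cit 2 (0.0562), and Camk2a by leaving out CGG 3 (0.0558).

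Sox10 was the lowest of the Schwann cell members. It stood at 0.745, 1.99 and 0.434 FPKM in CGG 1, 2 and 3 and at 1.3, 1.48 and 2.05 FPKM in CGG-Cit 1, 2 and 3, from 20 to 104 fragments. CGG 2 lay among the CGG-Cit libraries and CGG 1 and CGG 3 below them. The log2 fold change was 0.40 ± 0.295 (SE), with an adjusted p of 0.367 with limma. Melanocytes also use Sox10, and several of their defining genes were at or near 0, while Pmel was not. Slc45a2 had 0 fragments in every library, Tyr had 1 fragment in CGG 1 and 0 elsewhere, and Mlana had 2 to 13. Pmel had 20 to 41 fragments per library, at 0.539 to 1 FPKM, with overlapping groups (adjusted p = 0.86 with limma). The part of melanocytes in the Sox10 level was not tested. Of the 7 melanocyte markers measured 2 were tested and Mitf rose, a factor that macrophages and osteoclasts also express. The summed level of this list was 5.24 to 6 FPKM in CGG and 8.79 to 12.2 FPKM in CGG-Cit, most of it Mitf. The call of Mitf held only with CGG-Cit 3 as the library left out (otherwise adjusted p up to 0.0867).

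S100b encodes a calcium-binding protein of Schwann cells, fat cells and cartilage cells. It stood at 19.5, 12.6 and 7.13 FPKM in CGG 1, 2 and 3 and at 9.3, 17.4 and 16.2 FPKM in CGG-Cit 1, 2 and 3. The groups overlapped fully, and the highest library was a CGG library. The log2 fold change was 0.18 ± 0.371 (SE; adjusted p = 0.77 with limma). Fat cell markers, of which 1 of 4 (Fabp4) rose, summed to 362.2 to 581.9 FPKM in CGG and 643 to 1608 FPKM in CGG-Cit. The call of Fabp4 held only with CGG-Cit 1 left out (otherwise adjusted p up to 0.103). Of 3 cartilage markers tested 0 passed with limma (0 at an unadjusted p under 0.05), and the list summed to 4.86 to 12.1 FPKM in CGG and 4.17 to 8.62 FPKM in CGG-Cit. The part of either cell type in the S100b level was not tested.

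Pmp22 encodes a membrane protein of compact myelin, and fibroblasts make it as well when they stop dividing. It was the most abundant of the 8 genes, with 35.7, 45.6 and 23.5 FPKM in CGG 1, 2 and 3 and 47.2, 67.2 and 82.3 FPKM in CGG-Cit 1, 2 and 3. Each CGG-Cit library was above each CGG library, although CGG 2 and CGG-Cit 1 were close. Of the 6 genes tested, Pmp22 and Stmn2 did not overlap between the groups, and this held for 41.7% of all genes tested. The log2 fold change of Pmp22 was 0.90 ± 0.285 (SE), with an adjusted p of 0.073 with limma, so it did not pass. It passed in 1 of the 16 alternatives, after rescaling to TPM (adjusted p = 0.0341, where 19.7% of all genes passed), and there the median of all genes moved from 0.00 to 0.16 and Pmp22 stood 0.93 above that median.

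Prx encodes periaxin, a scaffold protein that links the Schwann cell membrane around myelin to the basal lamina. It stood at 2.74, 5.03 and 1.58 FPKM in CGG 1, 2 and 3 and at 2.49, 4.02 and 5 FPKM in CGG-Cit 1, 2 and 3. The highest and the lowest value were both in CGG. The log2 fold change was 0.28 ± 0.345 (SE; adjusted p = 0.595 with limma).

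Mbp encodes myelin basic protein, which compacts the inner faces of the myelin membrane. The same locus also gives Golli transcripts, which blood cells make, and the table has 1 value for the whole gene. Mbp stood at 9.8, 21.2 and 17 FPKM in CGG 1, 2 and 3 and at 12.4, 14.5 and 17.2 FPKM in CGG-Cit 1, 2 and 3, so the CGG libraries enclosed the CGG-Cit libraries. The log2 fold change was -0.07 ± 0.271 (SE; adjusted p = 0.885 with limma). Unlike the other 4 Schwann cell and myelin members, Mbp was not lowest in CGG 3 among the CGG libraries but in CGG 1. Of 5 leukocyte markers Csf1r rose and S100a8 and Cd79b fell, with summed levels of 5323 to 5998 FPKM in CGG and 1076 to 2138 FPKM in CGG-Cit. This sum was mostly S100a8, a neutrophil gene, while the pan-leukocyte gene Ptprc stood at 72.8 to 78.4 FPKM in CGG and 77.3 to 155.7 FPKM in CGG-Cit. The part of blood cells in the Mbp level was not tested. Leaving out any library ended the call of Csf1r (adjusted p up to 0.108), leaving out CGG 3 that of S100a8 (0.0558), and leaving out CGG 1, CGG 3 or CGG-Cit 2 that of Cd79b (up to 0.0689).

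The spread between libraries of 1 group was larger in these genes than in most. Sox10 varied 4.58-fold between the CGG libraries, Prx 3.19-fold, S100b 2.74-fold, Mbp 2.17-fold and Pmp22 1.94-fold. Their coefficients of variation in CGG were 31.7% to 77.8%, against a median of 13.4% over all genes tested. In CGG-Cit they were 16.5% to 33%, against a median of 15.4%.

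This spread followed the library. Among the 5 Schwann cell and myelin members and 21 other tested genes of the cell type, 21 of 26 were lowest in CGG 3 among the CGG libraries, where 30.6% of all genes tested were. Likewise 20 of 26 were highest in CGG 2, against 33.5% of all genes. In CGG-Cit, 17 of 26 were highest in CGG-Cit 3, against 36.8% of all genes, and 15 of 26 were lowest in CGG-Cit 1, against 35.6%. These genes were not independent of each other within a library. The endothelial markers Cdh5, Kdr and Tie1 together were also lowest in CGG 3, at 58.4 FPKM, and reached 86.2 FPKM in CGG 2, with 83.5 to 100.8 FPKM in CGG-Cit. By gene, only Tie1 had this order in CGG. Cdh5 was lowest in CGG 1 (23.4 FPKM, against 24.7 in CGG 3) and Kdr was highest in CGG 1 (10.6 FPKM). None of the 3 passed between the gels with limma (0 calls, 1 at an unadjusted p under 0.05), and their part in the pattern was not tested.

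**Figure D3:**
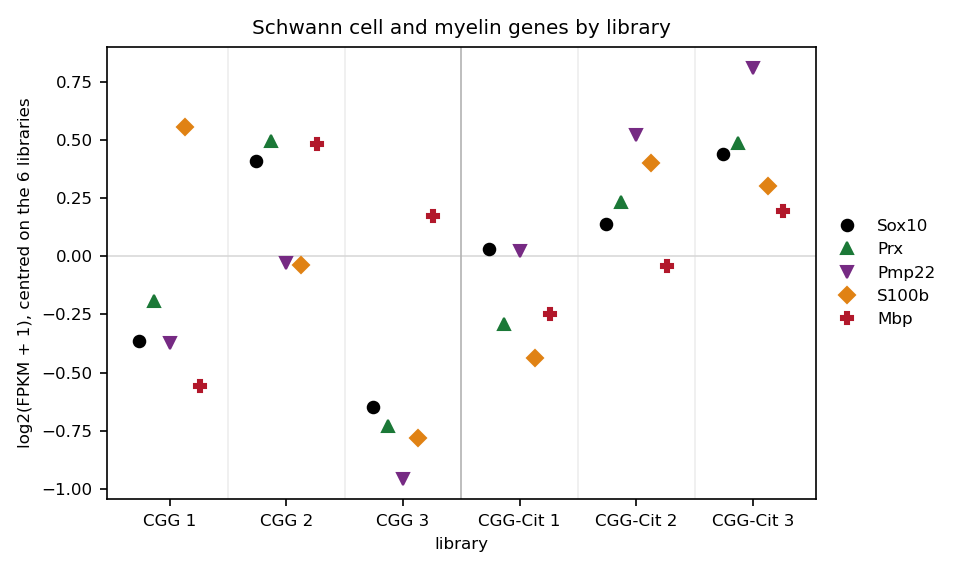
log2(FPKM + 1) of Sox10, Prx, Pmp22, S100b and Mbp in each library, centred on the 6 libraries of each gene, with 1 symbol per gene. In CGG 3 all but Mbp lie below 0, and in CGG-Cit 3 all 5 lie above 0.

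The fold changes of the Schwann cell and myelin members moved with which CGG library was left out, and none passed in these fits. In the fit without CGG 3, 1.92% of all genes passed. Without CGG 3 the log2 fold change was 0.65 for Pmp22 (adjusted p = 0.177), 0.18 for Sox10 (0.724), -0.0091 for Prx (0.989) and -0.17 for S100b (0.76). Without CGG 2 it was 0.71 for Sox10 (0.0936), 0.60 for Prx (0.226) and 1.11 for Pmp22 (0.07). Without CGG 1 it was 0.50 for S100b (0.369) and -0.36 for Mbp (0.233). Stmn2 passed in each of these fits, with 2.49 (0.037) without CGG 3, and in CGG it was highest in CGG 3 and lowest in CGG 1.

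Ratios to Sox10 within a library were computed as well. They rest on 20 to 104 Sox10 fragments and carry the spread of Sox10, and with 3 against 3 libraries no p can fall below 0.1. Pmp22 was 41.7 ± 16.5 times the level of Sox10 in CGG and 40.7 ± 4.58 times in CGG-Cit (SD, n = 3, FPKM over FPKM). The exact two-sided permutation p was 1, and the groups overlapped. The ratio of Prx to Sox10 was 3.28 ± 0.646 and 2.36 ± 0.407 (exact permutation p = 0.2), and that of S100b was 16.3 ± 9.93 and 8.96 ± 2.49 (0.4).

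Mbp and Stmn2 differed in this ratio without overlap between the groups. Mbp stood at 13.2, 10.7 and 39.1 times Sox10 in CGG and at 9.55, 9.79 and 8.41 times in CGG-Cit. Stmn2 stood at 0.489, 0.984 and 4.92 times Sox10 in CGG and at 8.61, 6.49 and 4.96 times in CGG-Cit, so that CGG 3 and CGG-Cit 3 were level. Both had an exact two-sided permutation p of 0.1 and an adjusted value of 0.3 over the 6 ratios computed.

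Of 27 other Schwann cell and myelin genes measured 21 were tested, 4 rose and 1 fell, with a median log2 fold change of 0.40 against 0.00 for all genes tested. Of all genes tested 7.75% were called higher and 9.78% lower, and the share of this list called was near the 17.5% of all genes. The genes that rose were Ndrg1, Egr2, Erbb3 and Cadm4, and Ugt8 fell. Cnp, an enzyme of the cytoplasmic channels of myelin, was not among them, with 43.6 ± 0.34 FPKM for CGG against 46.6 ± 5.79 for CGG-Cit (SD, n = 3; adjusted p = 0.589 with limma). Mag had 1 to 13 fragments per library and was not tested.

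Ndrg1, a cytoplasmic protein that Schwann cells need to keep myelin and that many tissues induce in low oxygen, rose from 84.9, 72.9 and 55.3 FPKM in CGG to 217 FPKM, 201 FPKM and 171.6 FPKM in the 3 CGG-Cit libraries. The groups lay far apart, the adjusted p was 0.00775, and Ndrg1 passed in all 16 alternatives. Egr2, the zinc finger factor that switches on myelination and is also used by macrophages and osteoclasts, stood at 4.54, 4.08 and 4.57 FPKM in CGG and at 17.1, 11.7 and 8.17 FPKM in CGG-Cit. It rose by 1.25 ± 0.239 (SE) on the log2 scale (adjusted p = 0.0217) and was higher in every CGG-Cit library, as was Pmp22, which did not pass. Its call held only with CGG-Cit 1 or CGG-Cit 3 as the library left out (otherwise adjusted p up to 0.0746).

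Erbb3, the Schwann cell receptor for neuregulin, stood at 1.32, 1.6 and 1.3 FPKM in CGG and at 3.97, 2.18 and 3.42 FPKM in CGG-Cit, and rose by 0.78 on the log2 scale (adjusted p = 0.0397). Its ligand gene Nrg1 averaged 0.965 ± 0.0482 and 0.425 ± 0.276 FPKM (SD, n = 3; adjusted p = 0.131 with limma). Each CGG-Cit library of Nrg1 was below each CGG library, and groups did not overlap in 41.7% of all genes tested. Cadm4, a Schwann cell adhesion protein that contacts the axon, rose by 0.98 (adjusted p = 0.0407). Ugt8, the enzyme that makes the galactolipids of myelin, had 6.63, 8.29 and 7.79 FPKM in CGG and 1.87, 1.33 and 5.01 in CGG-Cit and fell by 1.32 (adjusted p = 0.0438). Erbb3, Cadm4 and Ugt8 are the less firm of these calls. With 1 library left out, Erbb3 passed only where that was CGG-Cit 2 (otherwise adjusted p up to 0.119), Cadm4 only where it was CGG 2 (otherwise up to 0.105) and Ugt8 only where it was CGG-Cit 3 (otherwise up to 0.128). With the replicate number as a block, where 10.4% of all genes passed, Ndrg1 and Egr2 remained of the 5. Without CGG 3 Ndrg1 alone passed, with a median of 0.14 for the list.

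**Figure D4:**
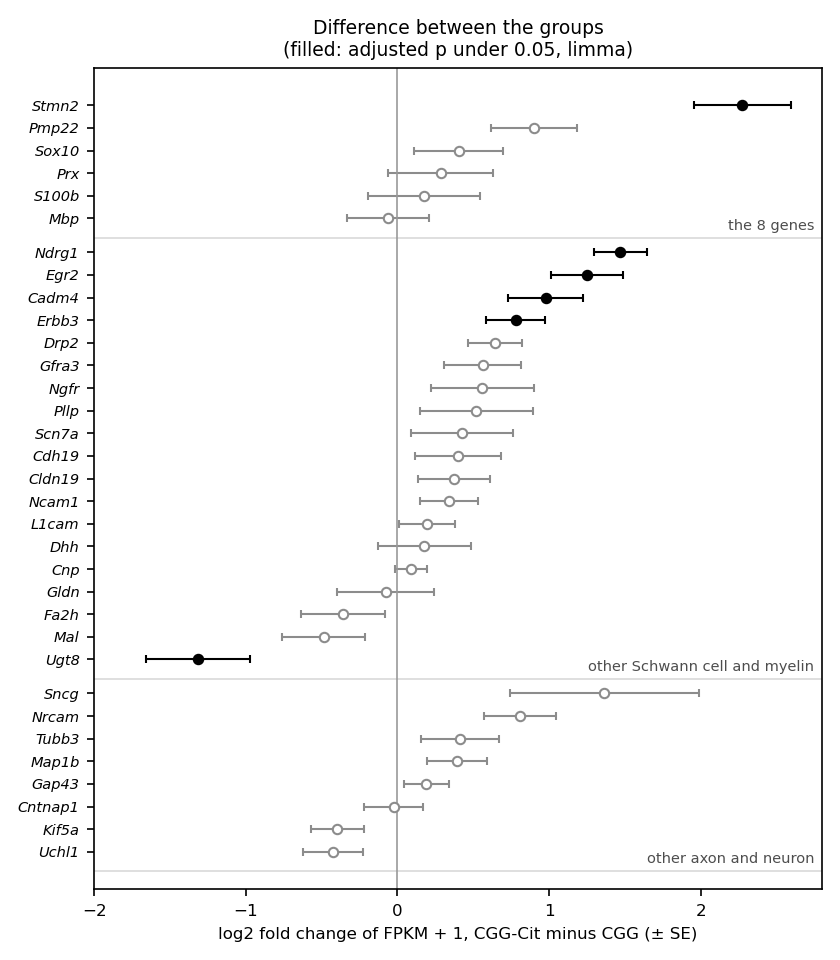
log2 fold change of FPKM + 1, CGG-Cit minus CGG (horizontal axis), with the SE from limma, for the 6 members tested and for other Schwann cell and myelin genes and axon and neuron genes. Filled points passed at an adjusted p under 0.05: Stmn2, Ndrg1, Egr2, Cadm4 and Erbb3 to the right and Ugt8 to the left.

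Among the trophic and guidance genes that nerves respond to, 18 were measured, 12 were tested, 2 rose and 1 fell, with 17.5% of all genes called, and the median log2 fold change was 0.46 against 0.00 for all genes. Nrtn, which encodes neurturin, a survival factor for autonomic and sensory neurons, stood at 12.2, 15 and 14.9 FPKM in CGG and at 6.53, 4.83 and 6.13 FPKM in CGG-Cit. It fell by 1.14 ± 0.14 (SE; adjusted p = 0.00832) and passed in all 16 alternatives. Nrp1, a receptor for semaphorins and for vascular growth factor, rose by 1.11 (adjusted p = 0.0134). Ntrk3, the receptor for neurotrophin-3, rose from 1.49 ± 0.59 to 3.31 ± 0.242 FPKM (SD, n = 3; adjusted p = 0.0379 with limma). Leaving out CGG 3 (adjusted p = 0.0589) or CGG-Cit 2 (0.0507) ended the call of Nrp1, and leaving out any library except CGG 1 ended that of Ntrk3 (up to 0.104), as did the replicate block (0.0816). After rescaling to TPM 6 of these genes rose and 1 fell, in a fit that called 2203 of all genes higher and 948 lower and moved the median of all genes to 0.16.

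At the muscle end of motor nerves, 9 genes of the neuromuscular junction were measured, 5 were tested, 3 fell and 0 rose, where 9.78% of all genes tested fell. Dok7, the activator of the receptor kinase Musk, stood at 1.01, 1.21 and 0.974 FPKM in CGG and at 0.108, 0.107 and 0.0982 FPKM in CGG-Cit. Chrnb1, an acetylcholine receptor subunit, fell by 1.21 and Rapsn, which clusters that receptor, by 0.81 on the log2 scale (adjusted p = 0.0211 and 0.0325). Muscle fibre markers fell in the same libraries, as given above, and the part of muscle in these falls was not tested. Leaving out CGG 3 or CGG-Cit 2 ended the 3 calls (the highest adjusted p was 0.108), those of Chrnb1 and Rapsn also without CGG-Cit 1 and that of Rapsn without CGG 2. Dok7 fell under the filter without CGG 1 and without CGG 2 and was not tested there, and under the replicate block Dok7 (0.0547) and Rapsn (0.0624) did not pass.

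Of 5 perineurial markers measured, for the sheath around nerve bundles, 4 were tested and Slc2a1, a glucose transporter of many cells, rose. It did so from 14, 12.8 and 17.1 FPKM to 101, 45 and 25.8 FPKM (adjusted p = 0.0465), and the call held only with CGG-Cit 3 as the library left out (otherwise adjusted p up to 0.119). The tight junction gene Cldn1 stood at 0.987 to 1.63 FPKM in CGG and 0.872 to 4.24 FPKM in CGG-Cit, with overlapping groups. The list summed to 23.2 to 28.7 FPKM in CGG and 54.98 to 118.7 FPKM in CGG-Cit, and Lypd2 was at 0 throughout.

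For each member tested, the protein-coding genes with the most similar course over the 6 libraries were found by Pearson's r of log2(FPKM + 1) among 13906 genes. These r values describe 6 libraries that share their depth scaling and tissue makeup, and were picked as the highest of many. Stmn2 was closest to AABR07059632.3 (r = 0.994) and Wdfy1 (0.991), Sox10 to Six5 (0.992) and the olfactory receptor gene Olr63 (0.991), and S100b to Zfp219 (0.993) and Nr2c1 (0.979). Prx was closest to Crip2 (0.998), which ran from 41.8 FPKM in CGG 3 to 87.6 FPKM in CGG 2, and to Sema4c (0.992). Pmp22 was closest to Pik3r2 (0.996) and Cygb (0.994), a globin of fibroblasts, and Mbp to Creb3l1 (0.991) and Tomm40l (0.978). None of these closest genes was another of the 8 members.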

How the data were processed

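The table of FPKM was deposited by the authors for 34045 genes, in 3 CGG and 3 CGG-Cit libraries. Per the submitters' processing notes, the tools were featureCounts 1.5.0-p3, HISAT2 2.0.5 and DESeq2 1.20.0 and the build was mRatBN7.2. The sources used here do not give the strand setting, so a gene and an antisense neighbour cannot be told apart. Coordinates are printed as listed, with no build, since chromosome 1 reaches 282724300 in the table and 270492571 in the GRCr8 gene table. FPKM times the deposited gene length gave whole multiples of 1 fragment, within 0.01, for 100% of values above 0 in every library.

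Expression was tested with limma 3.58.1 in R 4.3.3, with moderated variances that follow the mean, on log2(FPKM + 1). The 15965 genes whose mean reached 0.5 FPKM were tested, without a block. Benjamini-Hochberg adjustment ran over all of them, and adjusted p-values under 0.05 were called. Fold changes are CGG-Cit minus CGG and, on this scale, are too small for low genes. The fit was tested on simulated data, in which genes varied independently and with the same dispersion. That test does not cover genes that move together by library. The members and lists were chosen with earlier results of these data known. The text names the 8 members, up to 6 passing genes of each list, defining markers of other cell types, and the 2 closest genes of each member. Other genes (Map1b, Kif5a, Cntnap1, Tubb3, Uchl1, Olig1, Olig2, Mog, Gfap, Ptgds, Crabp2, Ptprc, Cnp, Mag, Gap43, Sncg, Nrcam, Nefh, Stmn3, Stmn4, Nrg1, Col1a1, Bglap and the neuronal genes at 0) were chosen after their values were seen. Of 150 listed symbols 144 matched the table, and the others were not analysed here. Some measured genes of the lists are counted but not reported here by name. RefSeq promoter windows (GRCr8) were matched by symbol for 4 of the 8 members.

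The alternatives were pseudocounts of 0.1 and 0.5, no filter, a mean of at least 2 FPKM, TPM, quantile and median-of-ratios scaling, robust variance moderation, voom on the recovered fragments, the replicate number as a block, and each library left out in turn. Same-numbered libraries of the groups did not deviate together (correlations of -0.0956, 0.00165 and -0.0779 for numbers 1, 2 and 3). The main fit therefore used no block. Such correlations cannot exclude a pairing with a small effect.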

Additional observations from a re-analysis of the deposited data

How the results depend on the processing

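Stmn2 passed in all 16 alternative fits. After rescaling to TPM 2 members were called, Stmn2 and Pmp22. The number of genes called among all tested was 2798, and it was 1667 with the replicate block and 307 to 2939 when a library was left out (CGG 1 gave 1190, CGG 2 gave 943, CGG 3 gave 307, CGG-Cit 1 gave 1028 and CGG-Cit 2 gave 453). TPM scaling gave 2203 higher and 948 lower genes, against 1237 and 1561. With the replicate block Stmn2 had an adjusted p of 0.0304, and 1 member was called as without it, so the block changed no call among the members. Members that had not passed changed sign as follows: Mbp stood at 0.11 with TPM scaling and at -0.36 to 0.16 with a library left out, Prx at -0.0091 to 0.60 and S100b at -0.17 to 0.50. The cause was not tested. Nefl and Nefm were fitted only without the filter, and Sox10 not at a mean of at least 2 FPKM. Depth limits Nefl and Nefm, with 16 and 4 fragments in all.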
